A study of Mus musculus with 9 samples.

Results

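The regions described here are intergenic peaks of 5-hydroxymethylcytosine (5hmC) that were called in wild-type macrophages, were not called in Tet2 knockout macrophages, and lie close to a gene. Of 9151 listed peaks, 1019 met the rule. Each lies on chr1-19 or chrX, carries the name of the merged wild-type call and not of the merged knockout call, overlaps no gene body, and lies at most 20 kb from the nearest end of a protein-coding gene. The study compared mouse macrophages with the genotype Tet2 knockout (KO) with wild-type (WT) macrophages, both at passage 0 and both treated with M-CSF, the growth factor on which macrophages depend. Genomic DNA with biotin-tagged 5hmC was enriched and sequenced in 2 KO and 2 WT samples, and total RNA depleted of ribosomal RNA in 2 KO and 3 WT samples. The sources used here do not give strain, age, tissue of origin or the kind of knockout allele. They also do not say whether replicates came from separate animals, so a p-value reflects only how these libraries vary, and that spread may be technical.

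TET2 is a dioxygenase that oxidises 5-methylcytosine in DNA to 5hmC, a step towards removal of the methyl group. In many cell types 5hmC is found in the bodies of transcribed genes and at enhancers, the distal elements through which transcription factors raise the output of a promoter. In the myeloid lineage, which yields macrophages and osteoclasts, loss of TET2 alters differentiation and the control of inflammatory genes.

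Over the listed peaks, 46230 and 42489 counts came from the KO 5hmC libraries and 42678 and 219116 from the WT ones. Peaks were called on merged libraries, so by these counts WT and KO calls were not made at equal depth. WT replicate 2 gave 84.6% of the pooled WT counts of the set, so ranks by pooled WT count rest mainly on that library. The KO libraries were compared over the 546 of the 1019 peaks with at least 5 counts over the 2 KO libraries. There the counts of the 2 KO libraries lay closer together than random sampling of reads would give. The chi-square divided by its degrees of freedom was 0.537, and p for a value this low was 8.44e-21. The KO libraries were therefore counted as 1 sample. The RNA libraries held 16053426 and 25479447 counts for KO and 17569441, 51355576 and 56394358 for WT. Tet2 RNA itself was not lower in the libraries labelled knockout, at 228 and 122 normalised CPM (counts per 1000000), against 104, 136 and 39.2 CPM in WT (edgeR adjusted p = 0.520). A knock-in feature in the RNA table held 1452 and 2245 counts in the KO libraries and none in any WT library, which separates the genotypes. The 8 macrophage markers summed to 17578 and 19887 CPM in KO and 21817, 14472 and 12457 CPM in WT. WT replicate 3 stood apart in stromal genes: Sparc, a matrix protein of stromal cells, had 0 and 0.190 CPM in KO and 0, 0.202 and 570 CPM in WT.

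Gene starts that these peaks reach are shown first, as far as the promoter table (RefSeq, GRCm38.p6) holds them. A window from 250 bases before to 50 bases after each start in it was overlapped by a peak at 3 protein-coding genes and at 4 long noncoding RNA genes. That table does not hold every start. Peaks 7 bases before the start of the Pigz gene body and 204 bases before that of Unk overlapped no window in it. The 3 coding genes are Vsig8, an immunoglobulin-domain membrane protein, Asgr2, a subunit of the asialoglycoprotein receptor, and Fam32a. The noncoding gene E030042O20Rik is shown as well, since the protein-coding gene nearest to its peak is Nfe2l2, which encodes NRF2, the regulator of the antioxidant response. The windows read, 5′ to 3′ on the strand of the gene, with the bases inside the peak in capitals:
Vsig8, chr1:172555688-172555987 (+): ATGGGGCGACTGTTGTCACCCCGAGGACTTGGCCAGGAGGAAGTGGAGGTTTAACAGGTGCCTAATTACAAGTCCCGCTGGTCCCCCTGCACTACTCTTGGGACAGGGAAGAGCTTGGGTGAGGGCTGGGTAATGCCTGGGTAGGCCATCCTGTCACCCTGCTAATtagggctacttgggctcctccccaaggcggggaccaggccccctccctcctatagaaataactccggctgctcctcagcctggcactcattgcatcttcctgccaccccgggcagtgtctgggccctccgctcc
Asgr2, chr11:70092394-70092693 (+): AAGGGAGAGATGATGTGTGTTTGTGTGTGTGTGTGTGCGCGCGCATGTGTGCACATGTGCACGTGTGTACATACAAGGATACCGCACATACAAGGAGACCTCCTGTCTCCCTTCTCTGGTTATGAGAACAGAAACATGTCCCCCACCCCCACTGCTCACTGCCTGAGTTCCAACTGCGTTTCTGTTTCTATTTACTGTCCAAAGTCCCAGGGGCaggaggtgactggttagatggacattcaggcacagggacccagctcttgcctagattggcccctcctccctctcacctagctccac
Fam32a, chr8:72219495-72219794 (+): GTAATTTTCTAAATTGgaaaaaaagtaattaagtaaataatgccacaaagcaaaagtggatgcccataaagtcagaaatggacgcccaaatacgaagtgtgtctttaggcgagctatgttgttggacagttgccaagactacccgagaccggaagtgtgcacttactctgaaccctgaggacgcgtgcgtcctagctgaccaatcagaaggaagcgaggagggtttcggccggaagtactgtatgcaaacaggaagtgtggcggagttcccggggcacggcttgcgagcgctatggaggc
E030042O20Rik, chr2:75706635-75706934 (+): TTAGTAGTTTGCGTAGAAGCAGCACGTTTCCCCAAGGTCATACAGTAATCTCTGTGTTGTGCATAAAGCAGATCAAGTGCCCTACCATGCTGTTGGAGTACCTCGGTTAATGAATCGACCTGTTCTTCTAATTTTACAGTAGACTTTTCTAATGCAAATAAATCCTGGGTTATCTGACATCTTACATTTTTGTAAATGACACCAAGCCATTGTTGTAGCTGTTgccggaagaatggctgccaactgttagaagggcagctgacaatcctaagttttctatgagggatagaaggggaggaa

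The peak covered 166 bases of the window at Vsig8, 214 at Asgr2, 16 at Fam32a and 223 at E030042O20Rik. The letters GAGGAAGT, the core bound by PU.1, the master transcription factor of macrophages, occur 1 time in the covered bases at Vsig8. The letters CACGTG, an E-box, occur 1 time in the covered bases at Asgr2. Among windows of the genes nearest to the 1019 peaks, 4.18% of 956 held GAGGAAGT on either strand, against 3.15% of 21045 windows of all protein-coding genes, and CACGTG was held by 9.94% against 7.91%. The RUNX core TGTGGT was held by 12.6% against 14.7%, and the AP-1 site TGANTCA by 5.65% against 7.04%. The nearest genes' windows had a median of 18 CG dinucleotides and 59.5% G and C, against 13 and 56.7% in all protein-coding windows. These windows lie at gene starts and, apart from the overlaps above, hold no bases of the peaks.

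The 5hmC counts at these 4 starts were low. The Asgr2 peak, 37 bases from the gene, had 1 and 0 counts in the KO libraries and 4 and 20 in the WT libraries. The Vsig8 peak, 85 bases away, had 3 and 3 counts in KO and 1 and 20 in WT. The Fam32a peak had 4 and 3 counts in KO and 5 and 30 in WT, and the Nfe2l2 peak 3 and 3 in KO and 1 and 20 in WT. WT replicate 2 held more counts in listed peaks than the other libraries, so its counts are the higher ones at an equal share of a library. KO replicate 1, KO replicate 2 and WT replicate 1 have like totals, and at Vsig8 and Nfe2l2 WT replicate 1 was not above either KO library.

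At the 3 coding genes and at Nfe2l2, RNA was as follows. Fam32a had 74.6 and 67.6 CPM in KO and 92.2, 68.3 and 61.0 CPM in WT, with overlapping groups. Vsig8 had 0.488 and 0.0761 CPM in KO and 0.547, 1.12 and 0.535 CPM in WT. Asgr2 had no count in KO and 0.205, 0.110 and 0.0167 CPM in WT, which is a handful of counts in a library. Nfe2l2 had 130 and 158 CPM in KO and 480, 244 and 220 CPM in WT, with both KO libraries below all 3 WT libraries (log2 -1.13 ± 0.42 SE, edgeR unadjusted p = 0.0388, adjusted p = 0.331).

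Intergenic location was about as common in peaks called in WT only as in the others. Of 7042 peaks called only in WT on chr1-19 and chrX, 2121 (30.1%) overlapped no gene body, against 28.3% of 942 peaks called in both genotypes and 29.8% of 1109 called only in KO. Of those intergenic WT-only peaks, 48.0% lay within 20 kb of a protein-coding gene, against 59.9% of the intergenic peaks called in both and 65.6% of those called only in KO. The 1019 peaks had a median length of 374 bases (247 to 1066) and a median distance of 6585 bases from the gene (7 to 19983), with quartiles at 2617 and 11626 bases. For 808 the strand of the gene was in the promoter table: the gene's start was the nearer end for 445 (55.1%) and its end for 363. WT-only peaks beyond 20 kb had a share of 58.3% nearest to a start, over 864 peaks.

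The peaks had 938 nearest genes, of which 863 had 1 peak, 69 had 2 and 6 had 3. Within 5 kb of each other lay 54 peaks. Many of these genes carried WT-only 5hmC in their bodies too. A WT-only peak lay inside 261 of the 938 genes (27.8%), against 13.6% of all 21631 protein-coding genes. The other calls were more common there as well. KO-only peaks lay inside 7.14%, against 3.01%, and peaks called in both inside 5.76%, against 2.65%. The nearest genes are also longer, with a median body of 27.8 kb against 17.3 kb, and the part of length in these differences was not tested.

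Since the peaks were chosen as called in WT and not in KO, their 5hmC contrast is a description of the set and carries no test. Together they held 2971 and 2720 counts in the KO libraries, 6.43% and 6.40% of all counts in listed peaks, against 4432 and 24291 counts in the WT libraries, 10.4% and 11.1%. Exact binomial 95% intervals, which cover counting error only, were 6.20% to 6.65% and 6.17% to 6.64% in KO, against 10.1% to 10.7% and 11% to 11.2% in WT. Both KO shares lay below both WT shares. Per kb of peak, the set had 157 and 157 CPM (counts per 1000000 counts in listed peaks) in KO and 254 and 272 CPM in WT. The KO share was 0.597 of the WT share (log2 -0.74, with an SD of 0.067 between the WT libraries). Shares of a library depend on what the other listed peaks do: relative to all WT-only peaks alone, the set's KO share was higher than its WT share (log2 0.14).

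**Figure D1:**
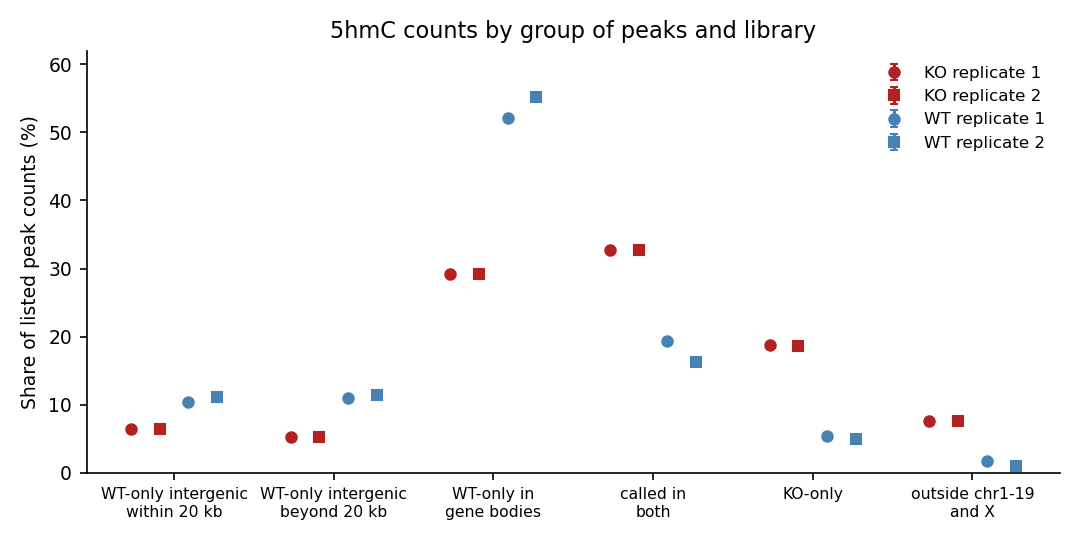
Share of each 5hmC library's listed-peak counts, in percent, that fell in each class of peak; each point is 1 library, KO left of WT, with exact binomial 95% intervals that are mostly smaller than the markers. The intergenic WT-only peaks within 20 kb of a gene hold 6.43% and 6.40% of KO counts and 10.4% and 11.1% of WT counts.

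The other WT-only peaks showed a lower KO share for their WT share. The ratio of the KO to the WT share was 0.473 for the 1102 intergenic WT-only peaks beyond 20 kb and 0.544 for the 4921 inside gene bodies, against 0.597 for the 1019 near genes. Peaks called in both genotypes had a ratio of 1.84 and peaks called only in KO 3.63. Within the set the ratio was lower farther from genes. It was 0.67 for the 107 peaks within 1 kb, 0.64 for 316 peaks at 1 to 5 kb, 0.58 for 274 peaks at 5 to 10 kb and 0.54 for 322 peaks at 10 to 20 kb. The same order held against WT replicate 1 alone (0.72, 0.66, 0.59 and 0.56) and against WT replicate 2 alone (0.64, 0.62, 0.57 and 0.53). Pooled WT counts per peak barely changed with distance, with medians of 25, 27, 25 and 25. Peaks nearer to a gene's start had a ratio of 0.63 and peaks nearer to its end 0.54.

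**Figure D2:**
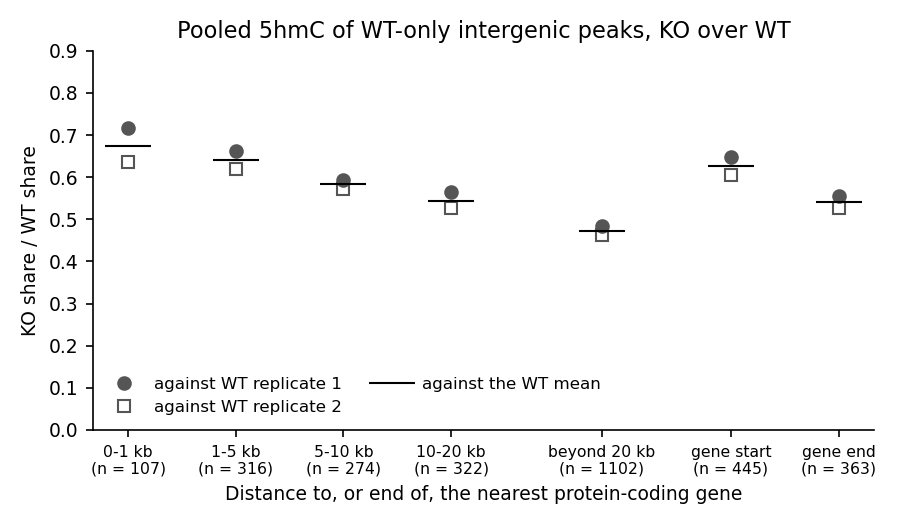
Ratio of the KO to the WT share of listed-peak counts for peaks grouped by distance to the nearest protein-coding gene, in kb, and by the end of the gene that is nearer; filled points give the ratio against WT replicate 1, open squares against WT replicate 2 and bars against their mean, and peaks beyond 20 kb are shown beside them. The ratio against the mean is 0.67 within 1 kb and 0.54 at 10 to 20 kb.

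Single peaks held few counts. The median peak had 2 and 2 counts in the KO libraries and 4 and 22 in the WT libraries. The pooled KO count per peak was 0 to 32 with a median of 5, and the pooled WT count 11 to 125 with a median of 25. In CPM, 574 of the 1019 peaks (56.3%) were lower in both KO than in both WT libraries, against 47.5% of all listed peaks. The reverse held for 43 (4.22%), against 18.3% of all listed peaks. All listed peaks include those called in KO, so both contrasts follow in part from how the set was chosen. The other WT-only peaks were not counted in this way. No count in either KO library was found for 67 (6.58%), against 5.84% of all listed peaks. Where the count is 0, a KO library allows up to 64.9 (replicate 1) or 70.6 (replicate 2) CPM, so absence of 5hmC cannot be read from it. Over the 1019 peaks, log2 counts of the WT libraries correlated at r = 0.44 and those of the KO libraries at 0.67. Pooled WT counts had a Spearman rho of 0.66 with peak length and -0.04 with distance to the gene. These correlations are across the 1019 peaks, which share the same libraries and depths.

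The strongest peak of the set lay 11639 bases from Vwf, the gene of von Willebrand factor, the clotting protein of endothelium and platelets, at chr6:125540244-125541309. It had 5 and 5 counts in KO and 25 and 100 in WT, or 108 and 118 CPM against 586 and 456 CPM. All KO values lay well below both WT values. Among peaks whose nearest gene is not a predicted gene, the next by pooled WT count were nearest to Cmah, an enzyme of sialic acid synthesis (8 and 5 counts in KO, 13 and 76 in WT), Irf8 (8 and 3 in KO, 11 and 78 in WT) and Mbnl2, a splicing regulator (13 and 7 in KO, 10 and 69 in WT). At Mbnl2, KO replicate 1 lay above WT replicate 1. The peaks nearest to Gnat3, Mapk3, Smc5, Macir, Lgals3 and Ptp4a2 complete the 10 strongest of these, with 2 to 10 counts in KO libraries, 12 to 16 in WT replicate 1 and 53 to 62 in WT replicate 2.

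Among peaks with no KO count, the strongest had 8 and 23 WT counts near Sema6d, a semaphorin guidance ligand. Next came peaks near Serpina3i (4 and 26 counts in WT), a member of a multigene serpin family, Tmigd1 (8 and 22), Dcaf5 (5 and 24), a substrate receptor of a ubiquitin ligase, and Tgfbi (5 and 24). Peaks near Nars and Nuak1 tied with Dcaf5 and Tgfbi in pooled WT count. The highest KO counts in the set, singled out after their values were seen, lay 1759 bases from Nfkbia: 18 and 14 counts in KO and 11 and 57 in WT, or 389 and 329 CPM of 5hmC in KO against 258 and 260 CPM in WT. Here both KO libraries lay above both WT libraries, although the peak carries a WT call only. The same held near Bcar3 (303 and 259 CPM in KO, 187 and 205 in WT) and Mon2 (238 and 235 in KO, 46.9 and 173 in WT).

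The peaks nearest to a gene lay 7 bases from Pigz, 12 from Rbm47, 28 from Slc37a3, 37 from Asgr2 and 69 from Tbcc, with another 69 from Gsn. The Pigz peak had 9 and 7 counts in KO and 14 and 47 in WT, and the Slc37a3 peak 5 and 5 in KO and 6 and 38 in WT. Just inside the limit of 20 kb lay peaks 19983 bases from Atg4c, 19926 from Prok2 and 19903 from Batf, with 1 to 6 KO counts and, in the WT libraries, 1 to 6 and 13 to 20. Just outside lay peaks 20012 bases from Lpl, 20042 from Socs3 and 20051 from Mfhas1, with 2 to 4 KO counts and, in the WT libraries, 1 to 13 and 20 to 41.

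Only 9 of the 1019 peaks lay on chrX. They held 7 and 4 counts in KO and 24 and 117 in WT, a ratio of shares of 0.22. The 39 other WT-only peaks on chrX had a ratio of 0.46. Leaving the 9 peaks out did not move the set's pooled log2 difference beyond its second decimal place.

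The 6 genes with 3 peaks each were Irf8, Cxcl1, Gpr65, Tgfbi, Med18 and Mepe. Irf8 encodes a transcription factor that directs monocytes to macrophages and restrains osteoclast formation. Its peaks lay 19.5 and 16.2 kb before its start and 3.2 kb after its end. They held 8 and 3, 2 and 2, and 3 and 8 counts in the KO libraries, against 11 and 78, 5 and 25, and 7 and 31 counts in the WT libraries. In CPM the first peak was below WT in both KO libraries (173 and 70.6 against 258 and 356) and so was the second (43.3 and 47.1 against 117 and 114). In the third, KO replicate 2 at 188 lay above WT replicates 1 and 2 at 164 and 141.

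Irf8 RNA had 122 and 111 CPM in KO and 345, 171 and 153 CPM in WT, with both KO libraries below all WT libraries (log2 -0.94 ± 0.42 SE, edgeR unadjusted p = 0.0692, adjusted p = 0.399). Without WT replicate 1, the highest, the difference was log2 -0.51.

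Cxcl1, a chemokine that draws neutrophils, had peaks 14.9 and 10.5 kb before its start and 1.1 kb after its end, with 2 and 2, 0 and 1, and 3 and 4 counts in KO and 7 and 38, 4 and 23, and 8 and 40 in WT. All 3 peaks were lower in both KO than in both WT libraries in CPM. Cxcl1 RNA was 16.0 and 9.52 CPM in KO and 0.479, 0.956 and 23.8 CPM in WT, so the groups overlapped through WT replicate 3. Gpr65, a proton-sensing receptor, had peaks 2.5 kb before its start and 5.9 and 15.6 kb after its end, with 4 and 5, 3 and 2, and 0 and 0 counts in KO and 9 and 29, 6 and 23, and 2 and 24 in WT. Its RNA was 20.9 and 25.1 CPM in KO and 61.8, 40.9 and 33.0 CPM in WT, with no overlap (log2 -0.97 ± 0.33 SE, edgeR unadjusted p = 0.0293, adjusted p = 0.305).

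Tgfbi, an extracellular matrix protein secreted by macrophages, had 1 peak before its start with 0 and 0 counts in KO and 5 and 24 in WT, and 2 after its end. The last of these had 5 and 5 counts in KO and 5 and 15 in WT, and its CPM overlapped between genotypes. Tgfbi RNA was 128 and 198 CPM in KO and 26.6, 256 and 345 CPM in WT, again overlapping. Med18, a subunit of the Mediator complex, had RNA of 8.06 and 9.17 CPM in KO and 6.84, 8.91 and 6.95 CPM in WT. Mepe, a bone matrix protein, had no RNA count in any library, though its 3 peaks held 27, 15 and 17 counts in WT replicate 2.

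**Figure D3:**
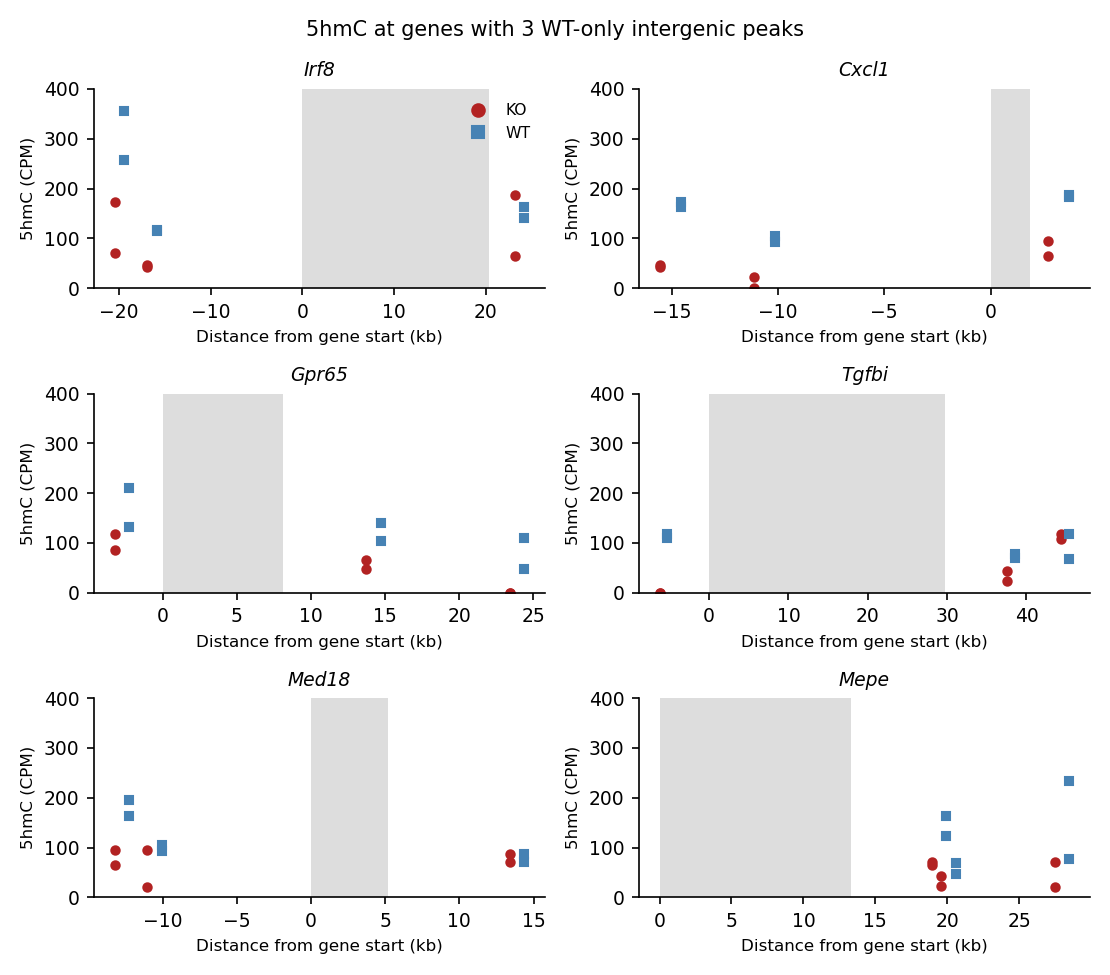
5hmC level, in CPM of listed-peak counts, of each peak near the 6 genes with 3 peaks, plotted at the peak's distance in kb from the gene start, with KO libraries drawn slightly left and WT libraries slightly right of the peak centre and the gene body in grey. At Irf8 the peak farthest before the start has 173 and 70.6 in KO and 258 and 356 in WT.

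RNA was not used to choose the peaks. Of the 938 nearest genes, 926 were matched to the RNA table, and 744 (80.3%) had enough counts to be tested, against 57.0% of 20851 protein-coding genes. At 1 CPM or more were 74.1% and 74.3% of the nearest genes in KO and 72.8%, 75.1% and 76.9% in WT, so the shares were like in both genotypes. Over all protein-coding genes the shares were 52.2% and 51.8% in KO and 51.0%, 51.9% and 56.1% in WT. This held for intergenic peaks of every kind: 77.9% of genes nearest to WT-only peaks beyond 20 kb were tested, 81.7% of those near KO-only peaks and 88.7% of those near peaks called in both. CPM are not scaled by gene length, so they compare libraries within a gene and not genes with each other.

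None of the 744 genes was called different between KO and WT by edgeR's quasi-likelihood test at an adjusted p under 0.05, where 0.0135% of 14851 genes were called higher and 0.0% lower. With unadjusted p below 0.05, 62 were higher (8.33%, against 5.95% of all tested genes and 6.15% of tested protein-coding genes) and 94 lower (12.6%, against 7.86% and 8.96%). DESeq2 called 36 higher (4.84%, against 3.37%) and 65 lower (8.74%, against 4.79%), and limma-voom called none (0.00673% higher and 0.0% lower over all genes). Without adjustment, limma-voom had 71 higher (9.54%, against 6.57%) and 76 lower (10.2%, against 6.07%), and DESeq2 78 higher (10.5%, against 8.17%) and 126 lower (16.9%, against 10.6%). Both directions thus held a larger share than the background. At an unadjusted edgeR p below 0.05, genes nearest to WT-only peaks beyond 20 kb were 8.22% higher and 14.4% lower. Near KO-only intergenic peaks within 20 kb the shares were 5.29% and 12.4%, and near those called in both 5.97% and 11.9%. The larger share of lower genes was therefore not particular to this set. The 744 genes had median levels of 43.1 and 43.4 CPM in KO and 43.4, 45.0 and 47.8 CPM in WT, against 25.7 and 27.4 CPM in KO and 26.7, 27.8 and 28.2 CPM in WT for the 11151 other tested protein-coding genes. The part of expression level in these shares was not tested.

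The fitted level was lower in KO for 453 of the 744 genes (60.9%) and higher for 291 (39.1%). Over all tested genes 51.6% were lower and 48.4% higher, and over tested protein-coding genes 54.8% and 45.2%. Both KO libraries lay below all 3 WT libraries for 191 (25.7%, against 19.0% of all tested genes and 21.0% of protein-coding ones) and above them for 135 (18.1%, against 17.2% and 17.3%). The median log2 difference was -0.15, with quartiles of -0.69 and 0.26, against medians of -0.03 over all genes and -0.06 over protein-coding genes. It was -0.10 for genes nearest to WT-only peaks beyond 20 kb, -0.12 near KO-only peaks and -0.07 near peaks called in both. The gap to the background narrowed when 1 KO library was left out or low genes were kept. Without KO replicate 1, 56.9% of nearest genes were lower, against 56.7% of protein-coding genes, with medians of -0.10 and -0.10. Without KO replicate 2, the shares were 64.3% and 61.6% and the medians -0.24 and -0.21. With no filter on low counts, 61.7% of the same nearest genes were lower, against 61.0% of protein-coding genes, with medians of -0.18 and -0.19. In these 3 settings the nearest genes were limited to the 744, while the protein-coding genes were not. Over all nearest genes fitted, the medians were -0.14 without KO replicate 1, -0.25 without KO replicate 2 and -0.21 with no filter. As these are bulk samples, fewer cells of a type and less RNA per cell cannot be told apart.

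**Figure D4:**
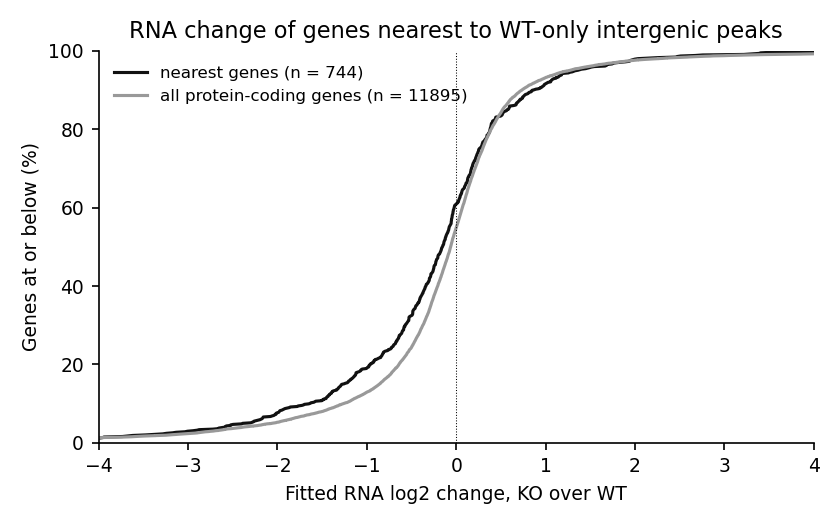
Cumulative share, in percent, of genes at or below each fitted log2 difference in RNA between KO and WT, for the 744 tested nearest genes (black) and all 11895 tested protein-coding genes (grey). Below 0 the curve of the nearest genes lies left of that of protein-coding genes, with medians of -0.15 and -0.06, and above it the curves cross.

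By distance of the closest peak, the differences were as follows. The median log2 difference was -0.13 for the 83 tested genes with a peak within 1 kb, -0.24 for 247 at 1 to 5 kb, -0.16 for 198 at 5 to 10 kb and -0.06 for 216 at 10 to 20 kb. It was -0.15 where the gene's start was nearest and -0.13 where its end was. Genes with 2 or 3 peaks had a median of -0.23 over 65 genes, against -0.15 over 679 with 1 peak. Genes that also carried a WT-only peak in their body had -0.08 over 242 genes, against -0.20 over 502 without one. Over the 744 genes, the log2 difference in RNA and that in 5hmC of the gene's peaks had a Spearman rho of 0.0006, with peak counts that are sparse.

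Of the nearest genes with a mean of at least 1 CPM, clone names left out, the 5 with the smallest p among those higher in KO were Ell2, Batf, Zc3h12a, Ccl3 and Cd244a. Ell2, a factor of the elongating RNA polymerase, had 304 and 278 CPM in KO and 72.1, 86.9 and 63.2 CPM in WT (log2 1.98 ± 0.22 SE, edgeR adjusted p = 0.138, DESeq2 adjusted p = 1.1e-13). Its peak, 13.9 kb past its end, had 2 and 3 counts in KO and 6 and 36 in WT. Batf, an AP-1 transcription factor, had 55.0 and 33.0 CPM in KO and 7.25, 6.69 and 9.21 CPM in WT (log2 2.51 ± 0.32 SE, edgeR adjusted p = 0.148). Zc3h12a, an RNase that degrades inflammatory mRNAs, had 86.6 and 68.4 CPM in KO and 28.5, 31.0 and 33.9 CPM in WT (edgeR adjusted p = 0.162). In each of these genes both KO libraries lay above all WT libraries.

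The same order of libraries held for Ccl3, a chemokine for monocytes, with 274 and 197 CPM in KO and 50.3, 42.6 and 79.8 CPM in WT (edgeR adjusted p = 0.169). Cd244a, a receptor of the SLAM family, had 43.5 and 73.9 CPM in KO and 4.31, 3.22 and 10.3 CPM in WT (edgeR adjusted p = 0.173). Their peaks held 3 and 5 counts in KO and 11 and 29 in WT near Ccl3, and 0 and 3 in KO and 5 and 23 in WT near Cd244a. Thus genes with higher RNA in KO libraries also lay beside peaks called in WT alone.

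The 5 with the smallest p among those lower in KO were Tmem154, Tmem144, Rnf150, Mmp12 and Slc27a6. Tmem154, a transmembrane protein, had 1.71 and 1.71 CPM in KO and 67.1, 37.3 and 95.7 CPM in WT (log2 -5.28 ± 0.53 SE, edgeR adjusted p = 0.137, DESeq2 adjusted p = 1.74e-19). Its peak, 7.7 kb before its start, had 0 and 0 counts in KO and 3 and 21 in WT. Mmp12, the macrophage elastase, had 60.3 and 112 CPM in KO and 843, 698 and 1337 CPM in WT (log2 -3.48 ± 0.50 SE, edgeR adjusted p = 0.162). Its peak, 13.7 kb before its start, had 2 and 2 counts in KO and 10 and 28 in WT. Both genes separated the genotypes in every library.

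Tmem144, a membrane protein, had 5.68 and 6.59 CPM in KO and 25.9, 23.6 and 21.1 CPM in WT (edgeR adjusted p = 0.154). It had 2 peaks past its end, with 2 and 1 and 3 and 4 counts in KO and 1 and 14 and 4 and 14 in WT. Rnf150, a membrane protein with a RING domain, had 16.5 and 26.3 CPM in KO and 96.4, 79.1 and 84.2 CPM in WT (edgeR adjusted p = 0.158). Slc27a6, of the fatty acid transporter family, had no count in KO and 2.74, 1.30 and 2.71 CPM in WT (edgeR adjusted p = 0.162), where 3 counts stand for 0.183 and 0.114 CPM in the KO libraries.

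**Figure D5:**
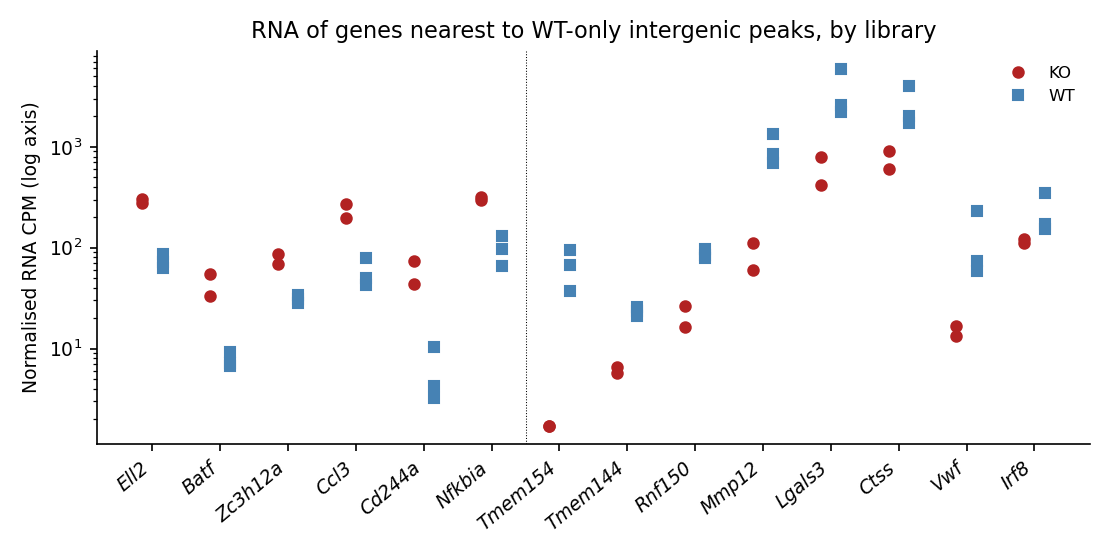
RNA level of named nearest genes in each library, in normalised CPM on a log axis, KO left of WT. Ell2, Batf, Zc3h12a, Ccl3 and Cd244a lie higher in both KO libraries than in all WT libraries, as does Nfkbia, and the 8 genes right of the dotted line, from Tmem154 to Irf8, lie lower in both.

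The 6 nearest genes with the highest mean WT level were Ctsd, Fth1, Lgals3, Spp1, Ctss and Vim. Ctsd and Ctss encode lysosomal proteases. Ctsd had 3213 and 3920 CPM in KO and 24364, 6402 and 12137 CPM in WT, and Ctss 602 and 911 CPM in KO and 4046, 2029 and 1706 CPM in WT. Lgals3, the galactose-binding lectin galectin-3, had 418 and 786 CPM in KO and 5955, 2217 and 2585 CPM in WT (log2 -2.57 ± 0.66 SE, edgeR adjusted p = 0.233). In these 3 genes both KO libraries were below all WT libraries. Fth1, the heavy chain of ferritin, and Vim, the filament protein vimentin, overlapped between genotypes, and Spp1, the matrix protein osteopontin, was highest in WT replicate 3 at 6438 CPM. Vwf, beside the strongest peak, had 13.4 and 16.9 CPM in KO and 233, 59.0 and 74.0 CPM in WT (edgeR adjusted p = 0.219).

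Several genes of macrophage function lay next to the peaks. Of 232 genes on 11 lists chosen with earlier results of these data known, 29 (12.5%) were nearest to a peak of the set, against 4.34% of protein-coding genes. Most list genes had enough RNA counts to be tested, against 57.0% of protein-coding genes. Of the 11895 tested protein-coding genes, 744 were nearest genes. The part of expression level in the share of list genes was not tested. All 29 were tested and none was called by edgeR. In KO the fitted level was higher for 13 and lower for 16, with unadjusted p below 0.05 for 3 and 6 of them and a median log2 difference of -0.13. Over all 14851 genes tested with edgeR, 5.95% were higher and 7.86% lower at that unadjusted p. The same shares are the background for the list counts below.

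Of the inflammatory mediators, Ccl3, Cxcl1, Nfkbia and Il1a lay next to peaks. Nfkbia, the inhibitor of NF-kB that NF-kB itself induces, had 321 and 299 CPM in KO and 66.0, 97.9 and 129 CPM in WT (log2 1.66 ± 0.32 SE, edgeR adjusted p = 0.188). Il1a, the cytokine interleukin-1 alpha, had 0.183 and 0.114 CPM in KO and 3.01, 0.110 and 6.12 CPM in WT, so WT replicate 2 lay at the KO level. Of the whole list, 20 of 24 tested genes were higher in KO and 4 lower, 10 and 1 of them at an unadjusted p under 0.05. The list summed to 1687 and 1274 CPM in KO and 311, 373 and 1498 CPM in WT, so WT replicate 3, which stands apart in stromal genes, lay within the KO range. Without WT replicate 3, 21 genes were higher and 2 lower, 17 and 0 at that p. Leaving out WT replicate 1 gave 15 and 8, with 9 and 0 at that p. Leaving out WT replicate 2 gave 16 and 8, with 11 and 2 at that p. The counts higher and lower were 16 and 8 without KO replicate 1 and 20 and 4 without KO replicate 2. From the interferon response, Ddx58, the RNA sensor RIG-I, had 269 and 201 CPM in KO and 37.3, 144 and 69.6 CPM in WT, and all 25 genes of that list had a higher fitted level in KO, 16 of them with unadjusted p below 0.05 (0 without KO replicate 1, 5 without KO replicate 2, 10 without WT replicate 3 and 25 without WT replicate 2).

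Of the lysosome list, Ctsd, Ctsl, Ctss and Npc2 lay next to peaks, and all 24 genes of the list had a lower fitted level in KO, 12 at an unadjusted p under 0.05. The list summed to 14928 and 18741 CPM in KO and 105653, 31145 and 39037 CPM in WT, with WT replicate 1 far above the other WT libraries. Without it all 24 were still lower, 13 at that p, with a median log2 difference of -0.83 against -1.28, and without either KO library 1 passed that p. Npc2, which carries cholesterol out of the lysosome, had 293 and 540 CPM in KO and 1700, 658 and 749 CPM in WT. The Ctss peak lay between Ctss and Ctsk, as did that of Ctsk, the main protease of osteoclasts, with 2 and 1 counts in KO and 2 and 34 in WT for the first and 2 and 1 in KO and 3 and 30 in WT for the second. Ctsk had 3.91 and 48.4 CPM in KO and 3.28, 36.6 and 23.3 CPM in WT, with wide overlap. Of the list of lipid handling, Plin2, Scd1, Scd2, Mylip and Pparg lay next to peaks, and 15 of its 18 genes were lower in KO, 5 at an unadjusted p under 0.05. That list summed to 7195 and 8619 CPM in KO and 33869, 8939 and 7257 CPM in WT, so WT replicate 1 stood apart and WT replicates 2 and 3 lay near the KO level. Without WT replicate 1, 12 of the 18 were lower, 7 at that p, and without either KO library 16 were lower, 1 at that p. Plin2, the coat protein of lipid droplets, overlapped between genotypes, while its 2 peaks held 0 and 4 and 0 and 1 counts in KO and 6 and 42 and 2 and 30 in WT.

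Among osteoclast genes, Atp6v0d2, a proton pump subunit needed for osteoclast fusion, had 5.19 and 33.7 CPM in KO and 931, 153 and 226 CPM in WT (log2 -4.48 ± 1.30 SE, edgeR adjusted p = 0.256), and Fosl2, an AP-1 factor, overlapped. Of 23 tested genes of that list, the level in KO was higher for 11 and lower for 12, 2 and 5 of them with unadjusted p below 0.05. Without KO replicate 1 it was 15 and 9, and without KO replicate 2 it was 7 and 17. Negative regulators of osteoclast formation next to peaks were Irf8, Bcl6 and Rbpj, and 6 of that list's 12 tested genes were higher and 6 lower, 0 and 4 of them with unadjusted p below 0.05 (0 and 2 without either KO library). Rbpj, the effector of Notch, had 2 peaks before its start with 2 and 1 and 2 and 2 counts in KO and 7 and 30 and 7 and 35 in WT, and its RNA overlapped between genotypes.

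Csf1r, the receptor for M-CSF, had 1057 and 1241 CPM in KO and 2440, 1889 and 1166 CPM in WT, and its peak 2 and 2 counts in KO and 10 and 29 in WT. Of RUNX genes, Runx2 had 11.8 and 11.8 CPM in KO and 7.18, 5.49 and 9.18 CPM in WT, and Cbfb, the partner subunit of RUNX proteins, had 121 and 177 CPM in KO and 120, 189 and 196 CPM in WT. Dnmt1, the maintenance DNA methyltransferase, had 309 and 371 CPM in KO and 184, 392 and 315 CPM in WT, and Dnmt3l was near 1 CPM or below in every library. Cell cycle genes (Mcm3 and Top2a) and adhesion genes (Cd44 and Itgb1) next to peaks had adjusted p from 0.572 to 0.969 in edgeR. The 10 macrophage identity genes higher and 10 lower in KO were evenly split, and the lists of DNA methylation, RUNX and myeloid factors, cell cycle and adhesion had 11 of 16, 7 of 17, 16 of 28 and 12 of 22 tested genes higher. Without WT replicate 1 these 4 lists had 6 of 16, 7 of 16, 4 of 28 and 12 of 22 higher. Without WT replicate 3 they had 9 of 16, 9 of 17, 23 of 28 and 12 of 22. Leaving out KO replicate 1 gave 10 of 17, 9 of 18, 21 of 28 and 11 of 22 higher. Leaving out KO replicate 2 gave 8 of 17, 6 of 18, 12 of 28 and 12 of 22. The direction of the cell cycle list thus turned on the libraries used, in KO as in WT, and so did that of the DNA methylation list.

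Markers of other cells moved with some of these results, and their part in them was not tested. The 12 stromal and osteoblast markers, of which Spp1 and Sparc are nearest genes, summed to 452 and 1368 CPM in KO and 424, 1251 and 12252 CPM in WT. Spp1 alone had 442 and 1363 CPM in KO and 421, 1249 and 6438 CPM in WT. Outside WT replicate 3 the sum was thus nearly all Spp1, and the other markers added little. The 6 B cell markers summed to 24.4 and 11.7 CPM in KO and 1.09, 2.72 and 15.1 CPM in WT. The 8 neutrophil markers summed to 1.53 and 137 CPM in KO and 135, 8.75 and 1.81 CPM in WT. The 7 megakaryocyte and erythroid markers, Vwf among them, summed to 45.9 and 37.6 CPM in KO and 245, 80.9 and 195 CPM in WT. Vwf alone had 13.4 and 16.9 CPM in KO and 233, 59.0 and 74.0 CPM in WT. Most of that sum in WT replicates 1 and 2 was thus this nearest gene itself. The 6 osteoclast markers summed to 27.3 and 148 CPM in KO and 42.1, 103 and 46.3 CPM in WT, the 5 dendritic cell markers to 16.6 and 7.00 CPM in KO and 4.51, 3.86 and 1.99 CPM in WT, and the 6 T and NK cell markers to less than 1 CPM in every library.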

How the data were processed

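RNA values are counts per gene and 5hmC values are counts per peak, both as the authors deposited them. Per the submitters' processing notes, reads were handled with STAR, BWA, HTSeq, MACS2, Trim Galore and CASAVA 1.4 on the build GRCm38. The sources used here do not say which tool did what, how peaks were chosen for the list or whether counting used strand. Peak names show calls on merged KO and merged WT libraries, so no peak is called per replicate. By counts in listed peaks the merged WT libraries are deeper than the merged KO libraries, through WT replicate 2. The peaks and lists were chosen with earlier results of these data known.

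Gene bodies came from the RefSeq table of GRCm38.p6, and a peak overlapping a body of any gene type was left out. That table has no strand, which was taken from the promoter table where a gene is in it. Peak coordinates are printed as the files give them, and whether starts count from 0 or 1 is not stated. A peak assigned to its nearest gene need not act on it. Promoter and miRNA sequences are RefSeq's, and 743 of 938 nearest genes matched the promoter table. Motifs were searched on both strands of 300-base windows, and TGANTCA and CACGTG read alike on both. Pooled shares are counts over all counts in listed peaks, and KO shares were averaged before the ratio, the KO libraries counting as 1 sample.

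RNA was fitted over all genes with edgeR 4.0.16 in R 4.3.3 (glmQLFit, glmQLFTest, TMM, filterByExpr, two-sided, Benjamini-Hochberg, 0.05). Normalised CPM are per 1000000 of the TMM-scaled library size. SE is that of the fitted log2 difference. The step was tested on simulated counts with known fold changes. Replicate numbers appear in both genotypes, but deviations of same-numbered RNA libraries correlated at 0.096 (number 1) and -0.073 (number 2), so no block was used. Alternatives were DESeq2 1.42.0, limma-voom (limma 3.58.1), other scalings, filters, denominators and distance limits, a block and each replicate left out. The denominator of all WT-only peaks and the limit of 30 pooled WT counts were chosen after seeing the data, as were the list counts without each replicate.

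Named peaks were the 10 with most pooled WT counts, the 5 with most among those without a KO count, the 5 nearest to a gene and the 3 on each side of the distance limit. Named genes were those with 3 peaks, those called in RNA, the 5 with the smallest p in each direction at a mean of 1 CPM or more, the 6 with the highest mean WT CPM and up to 4 members of each list. Pseudogenes, clone names and predicted genes were not named by these rules. Other genes named were chosen after their values were seen.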

Additional observations from a re-analysis of the deposited data

How the results depend on the processing

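The pooled 5hmC log2 difference of -0.74 was -0.63 for peaks within 5 kb, -1.63 relative to peaks called in both genotypes, -3.34 relative to listed peaks outside chr1-19 and chrX, and 0.14, with the direction turned, relative to all WT-only peaks. Its size therefore depends on the denominator. It ranged from -0.79 to -0.70 without each replicate. The set held 423 peaks at a limit of 5 kb and 616 when only gene starts with known strand counted. Peaks without a KO count numbered 125 in KO replicate 1 alone and 145 in KO replicate 2 alone. DESeq2 called 101 nearest genes, and edgeR none under any other scaling, filter or left-out replicate. Over all nearest genes that each setting could fit, the median RNA log2 difference of -0.15 was -0.23 at a limit of 5 kb and -0.25 to -0.11 without each replicate, and the cause was not tested. With the replicate block, pairing numbers 1 and 2, it was -0.11, edgeR called 0 nearest genes, and the pooled 5hmC difference was -0.74. A minimum of 10 pooled WT counts changed nothing, since each peak had at least 11. Few counts per peak limit every single-peak value.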

Other observations

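Some peaks of the set lay near microRNA genes. Within 5 kb of a peak were the genes of 6 microRNAs, Mir21a, Mir6367, Mir680-1, Mir7075, Mir152 and Mirlet7i. The peak nearest to Mir21a, at chr11:86582611-86582914 and 1153 bases away, had 7 and 6 counts in KO and 3 and 37 in WT, and both KO libraries lay above WT replicate 1. Its nearest protein-coding gene is Vmp1, an autophagy protein whose annotated gene body holds Mir21a, with 372 and 206 CPM in KO and 174, 138 and 206 CPM in WT. The mature strand of this microRNA, known as an abundant regulator of macrophage inflammation, is shown with its seed, bases 2 to 8, in capitals.
mmu-miR-21a-5p: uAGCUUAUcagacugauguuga

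Near the other 5, KO libraries held 0 to 11 counts, WT replicate 1 held 1 to 6 and WT replicate 2 held 15 to 38. The peak nearest to Mir680-1 had no KO count. RNA of these microRNAs was not analysed here.

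The 9 chrX peaks, with a ratio of KO to WT shares of 0.22, lie on a chromosome whose 68 listed peaks together had a ratio of 1.31, while 3 listed peaks on the Y chromosome had 2.94. Xist had at most 5 counts in any RNA library, and Ddx3y on the Y chromosome had 102 and 104 CPM in KO and 146, 111 and 119 CPM in WT.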
